A study of Mus musculus with 18 samples.

Results

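The genes described here encode the machinery that folds proteins in mouse cells. They are 43 genes chosen by name from the 53458 genes of the data, and the rule that lists them holds no measured value of the RNA. Earlier results of these data were known when the list was chosen. By role they comprise 14 chaperones and folding enzymes of the endoplasmic reticulum (ER), 5 genes of ER-associated degradation, 2 transcription factors, 7 cytosolic heat shock proteins of the HSP70, HSP90 and HSP110 families, 5 cytosolic co-chaperones, 7 subunits of the chaperonin CCT and 3 mitochondrial chaperones. Total RNA was sequenced from 3 bone marrow populations of C57BL/6 mice, sorted by flow cytometry. These were hematopoietic stem cells (HSC, gated as Lin-, Sca-1+, c-kit+, CD150+ and CD48-), the megakaryocyte-erythroid progenitors called preMegE, and the later erythroid-committed progenitors called preCFU-E. Each population came from Ptbp1 -/- mice (KO) and from Ptbp1 fl/fl mice (WT), with 3 biological replicates per group and 18 libraries in all. The WT controls thus carry floxed, undeleted Ptbp1 alleles. The recombinase that deletes the gene, its promoter, the exons removed and the age of the mice do not appear in the labels.

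Molecular chaperones bind unfolded stretches of a protein and let it fold, mostly in cycles driven by ATP. HSP70 proteins take up nascent chains with J-domain partners, HSP90 matures kinases and receptors, and the barrel-shaped CCT folds actin and tubulin. In the ER, BiP, lectin chaperones and disulfide isomerases fold secreted and membrane proteins, and the unfolded protein response raises their genes through ATF6 and XBP1, as HSF1 does for cytosolic heat shock genes. Stem cells are known for low rates of protein synthesis, while erythroid progenitors grow and divide quickly before they fill with hemoglobin. PTBP1, the protein removed in the KO mice, binds pyrimidine-rich RNA and regulates splicing.

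Libraries held 15956408 to 29226287 estimated reads, of which mitochondrial ribosomal RNA took 12.7% to 33.6%. Ptbp1 itself had 90.3, 108 and 96.3 CPM in HSC KO libraries, against 221, 208 and 196 CPM in HSC WT libraries (log2 fold change -1.09, SE 0.13, adjusted p = 2.11e-04). In preMegE it had 189, 187 and 232 CPM in preMegE KO libraries, against 595, 697 and 787 CPM in preMegE WT libraries (log2 fold change -1.77, SE 0.13, adjusted p = 1.20e-07). In preCFU-E it had 298, 303 and 318 CPM in preCFU-E KO libraries, against 1116, 1272 and 1345 CPM in preCFU-E WT libraries (log2 fold change -2.02, SE 0.13, adjusted p = 5.51e-09). Ptbp1 was thus lower in every KO library than in every WT library of its population, and reads remained in all of them. CPM are read counts scaled to library sizes that were adjusted by TMM factors, and log2 fold changes are KO over WT. The summed CPM of 6 HSC markers was 959 to 1194 in HSC KO and 1295 to 1333 in HSC WT libraries, and 14.9 to 21.4 in preCFU-E. That of 6 erythroid markers was 102 to 148 in HSC, 1244 to 1427 in preMegE and 5438 to 6869 in preCFU-E. Plasma cells, which are rich in ER chaperones, had 6 markers summing to 1.28 to 10.7 CPM over all libraries. The sum was 4.02 to 10.7 CPM in HSC KO and 4.03 to 4.53 CPM in HSC WT libraries. The female-specific Xist lay at 6434 to 8617 CPM in HSC and at most 1.09 CPM in the progenitors, while the Y-linked Eif2s3y lay at most at 1.05 CPM in HSC and at 38.3 to 85.2 CPM in the progenitors, so that sex and cell type cannot be told apart in any comparison with HSC. The library HSC KO 2 stood apart from all others on the third principal component, at -138.9 against -17.1 to 42.3. In bulk samples such as these, fewer cells of a type and less RNA per cell cannot be told apart.

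Several of the ER genes share a short sequence that few promoters of the genome hold. RefSeq promoters of GRCm38.p6, from 250 bases before to 50 bases after each annotated start, were matched for 35 of the 43 genes and for 27025 genes in all. The ER stress element (ERSE) was searched on both strands as CCAAT, any 9 bases and CCACG. It is the sequence to which NF-Y and ATF6 are known to bind. It was found in 8 of the 35 promoters, 7 of them among the 12 matched ER chaperones and foldases, against 37 of all 27025 promoters (0.137%). Each is given as read on the strand that starts with CCAAT, with the fixed bases in capitals, because these are the genes whose levels the unfolded protein response is known to set.
Hspa5: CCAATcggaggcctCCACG
Hsp90b1, distal: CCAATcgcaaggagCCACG
Hsp90b1, proximal: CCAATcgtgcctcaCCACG
Calr: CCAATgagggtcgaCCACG
Canx: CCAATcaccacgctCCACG
Pdia6: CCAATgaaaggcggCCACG
Dnajc3: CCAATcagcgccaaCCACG
Creld2: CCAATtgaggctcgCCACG
Syvn1: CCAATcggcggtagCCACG
The 9 bases between the fixed ends differ in every copy, and Hsp90b1 alone of the list holds 2 copies. The related ERSE-II, searched as ATTGG, any base and CCACG, was found in Dnajb11 and Herpud1, against 12 of all promoters (0.0444%). The XBP1 element, searched as TGACG directly followed by TGG, was found in 0 of the 35 promoters, against 193 of all (0.714%). The heat shock element, searched as 3 alternating units of GAA or TTC with 2 bases between, was found in Hspd1, Hspe1 and Hsph1, against 179 of all promoters (0.662%). Only 4 of the 7 cytosolic heat shock genes had a matched promoter, so the others were not searched. A match describes the letters in this window and says nothing of binding.

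The stretches around 4 of these matches are given with the whole matched run in capitals, each on the strand of its gene. That of Hspa5, which encodes BiP, is chr2:34772005-34772063 on the plus strand of GRCm38.p6. The Hsp90b1 stretch, chr10:86705513-86705676 on the minus strand, holds its 2 ERSEs, the proximal copy in the reverse orientation. That of Herpud1, chr8:94386357-94386407 on the plus strand, holds the ERSE-II. The Hspe1 stretch, chr1:55088039-55088096 on the plus strand, is shared with Hspd1, which is read from the same bases in the other direction, and holds 2 overlapping matches to the heat shock element.
Hspa5: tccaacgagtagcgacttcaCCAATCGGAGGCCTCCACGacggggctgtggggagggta
Hsp90b1: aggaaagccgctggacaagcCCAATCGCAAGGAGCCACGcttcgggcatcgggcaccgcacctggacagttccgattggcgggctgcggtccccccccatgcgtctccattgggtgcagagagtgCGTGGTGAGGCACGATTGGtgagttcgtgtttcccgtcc
Herpud1: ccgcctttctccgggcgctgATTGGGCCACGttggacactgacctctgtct
Hspe1: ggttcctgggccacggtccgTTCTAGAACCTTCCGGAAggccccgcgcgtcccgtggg

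Loss of Ptbp1 gave no call among the chaperone genes in any population. With an adjusted p below 0.05 as the threshold, 0 of the 43 were called in HSC, where 0.844% of the 21565 genes tested were called. In preMegE 0 of 43 were called against 0.0603% of all genes, and in preCFU-E 0 of 43 against 0.153%. At an unadjusted p under 0.05, edgeR, DESeq2 and limma voom counted 5, 4 and 3 members in HSC, where edgeR counted 13.7% of all genes. They counted 1, 0 and 2 members in preMegE (4.92% of all genes) and 1, 1 and 1 in preCFU-E (3.68% of all genes), and DESeq2 and voom called 0 members after adjustment. The members' median log2 fold change was 0.0013 in HSC, with 21 of 42 values above 0 (Hspa1a, at or near 0 reads there, is left out), and -0.02 in preMegE, with 20 above 0. In preCFU-E it was 0.16, with 41 of 43 above 0, beside a median of -0.004 over all genes. Without preCFU-E WT 1, the library with the lowest value of 42 members in its group, 25 of 43 were above 0 and the median was 0.02. The 95% interval of the fold change lay within 2-fold in either direction for 32 members in HSC, for 34 in preMegE, and for 33 in preCFU-E. The wider intervals belonged mostly to heat shock genes, among them Hsp90aa1, Hspa1b, Hsph1, Dnaja1, Dnajb1 and Bag3 in all 3 populations. The ER gene Sdf2l1 also had a wider interval in all 3, and Hspa5, Dnajb9 and Manf had one in HSC.

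The summed level of immediate early genes, which handling of cells is known to induce, did not overlap between genotypes in preCFU-E. It overlapped in HSC and preMegE. The sum over 8 of them was 40.7, 54.8 and 33.6 CPM in preCFU-E KO libraries, against 23.8, 24.6 and 25.9 CPM in preCFU-E WT libraries, with no overlap. In preMegE it was 54.3 to 70.5 CPM in KO and 53.4 to 70.9 CPM in WT libraries, and in HSC it was 41.3 to 61.1 CPM in KO and 46.2 to 59.9 CPM in WT libraries. The sum was not tested, and the share of all genes without overlap in preCFU-E was not counted. The part of immediate early genes in the preCFU-E chaperone values was not tested.

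**Figure D1:**
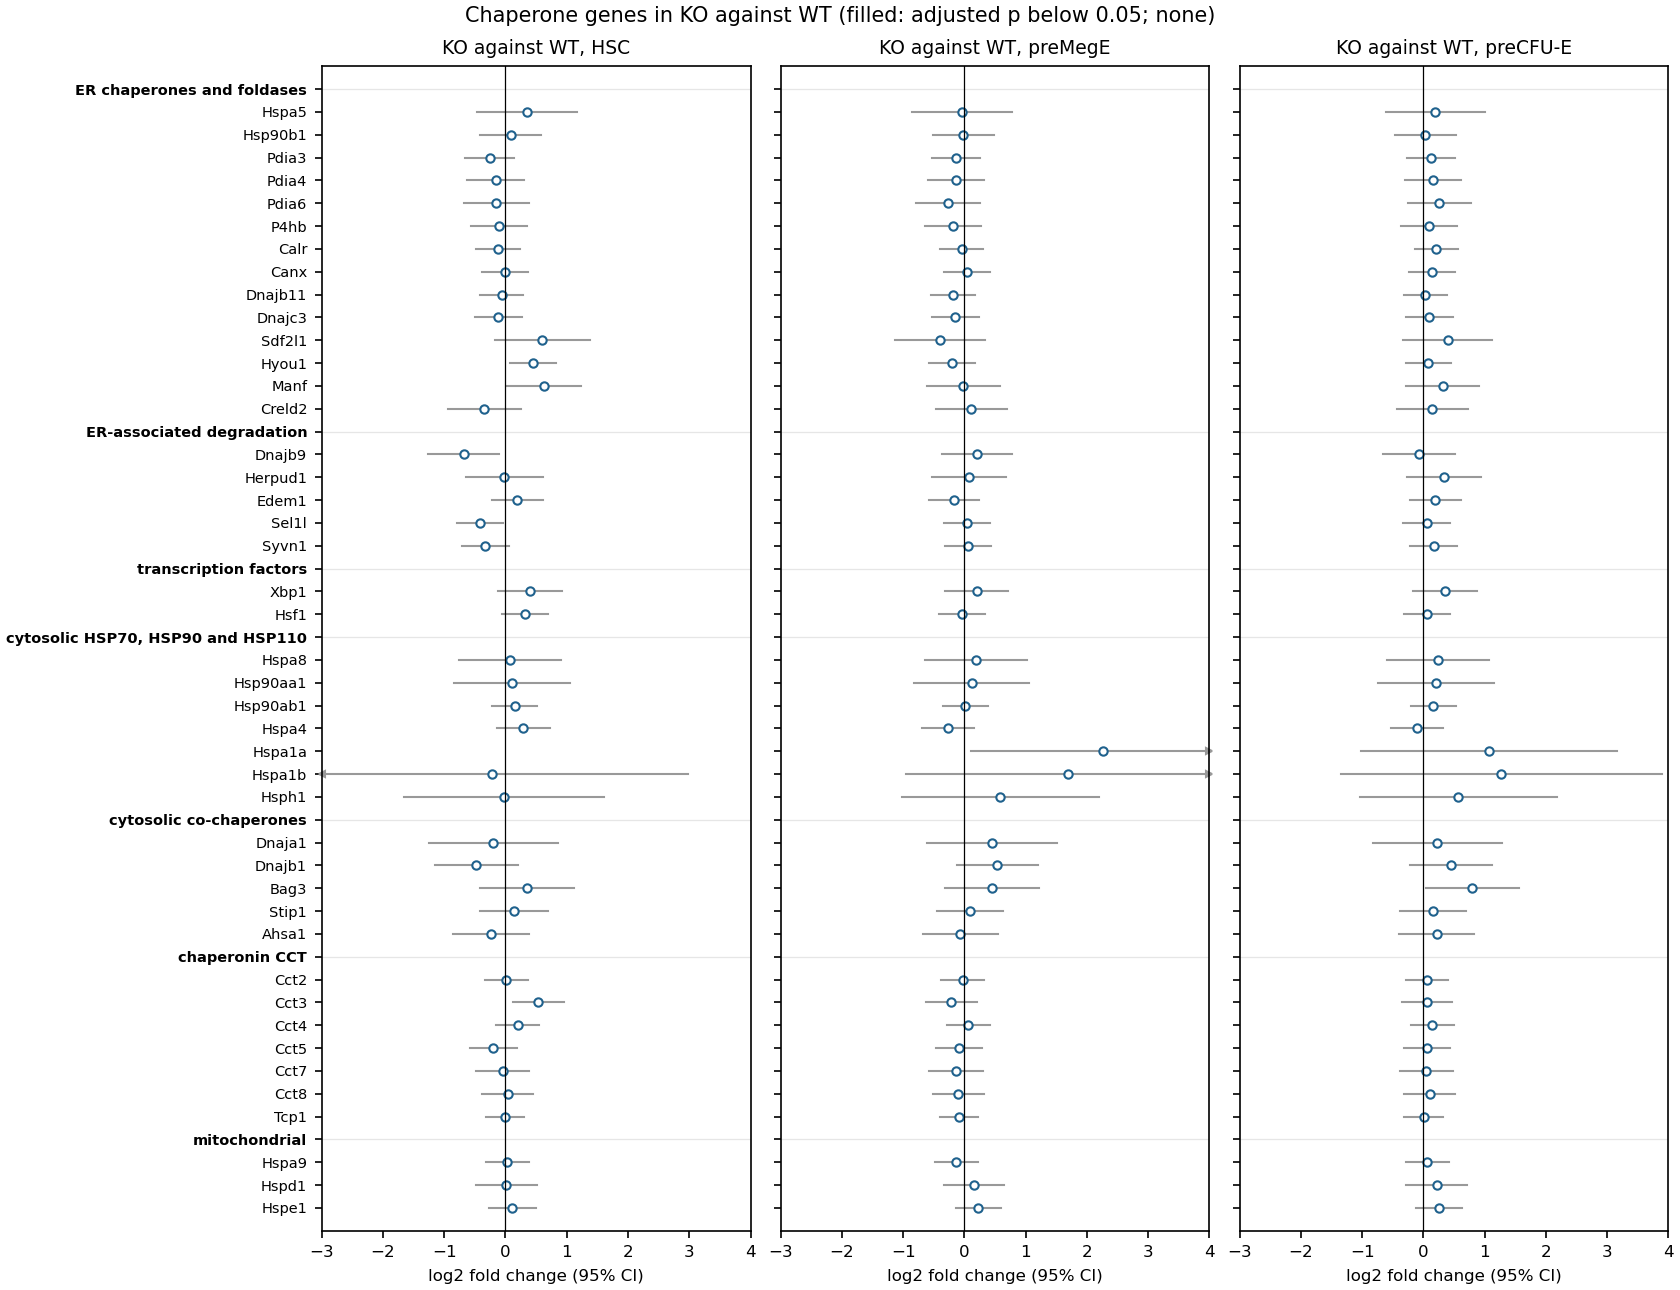
Log2 fold change of KO over WT (x axis) for each of the 43 genes, grouped by role, in HSC (without Hspa1a, at or near 0 reads there), preMegE and preCFU-E, with 95% intervals. Most points lie close to 0, those in preCFU-E mostly just above it (41 of 43), and Hspa1a and Hspa1b have the widest intervals.

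The differences between the KO effects of the populations gave no call either. For preMegE minus HSC, 0 of 43 members were called (0.0325% of all genes), with 4, 4 and 3 members at an unadjusted p under 0.05 by edgeR, DESeq2 and voom (8.15% of all genes by edgeR). The 6 members of lowest p were Cct3 (-0.75, SE 0.28, adjusted p = 0.470), Hyou1 (-0.66, SE 0.25, adjusted p = 0.479), Dnajb9 (0.88, SE 0.39, adjusted p = 0.566), Dnajb1 (1.02, SE 0.45, adjusted p = 0.566), Sdf2l1 (-1.001) and Hspa4 (-0.56), all on the log2 scale. For preCFU-E minus preMegE, 0 of 43 were called (0% of all genes) and 0, 0 and 0 passed an unadjusted p under 0.05 (2.62% of all genes). Its lowest p belonged to Sdf2l1 (0.80, SE 0.50), followed by Pdia6 (0.54), Edem1 (0.36), Hyou1 (0.28), Calr (0.26) and Pdia3 (0.26), with adjusted p = 1 for each. For preCFU-E minus HSC, 0 of 43 were called (0.051% of all genes), with 0, 1 and 1 members at an unadjusted p under 0.05 (7.92% of all genes). Dnajb1 led there (0.93, SE 0.45, adjusted p = 0.640), before Syvn1 (0.49), Sel1l (0.47), Cct3 (-0.48), Dnajb9 (0.61) and Hyou1 (-0.37).

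Between the populations the chaperone genes differed widely. In WT preMegE against WT HSC, 36 of the 43 genes rose, where 25.5% of all genes tested rose and 28.2% fell, and the fold change of all 43 was above 0. The members' median log2 fold change was 1.36, beside -0.43 over all genes, and it was 1.10 beside -0.08 with protein-coding nuclear genes only. In WT preCFU-E against WT preMegE, 26 members rose and 1 fell, where 15.6% of all genes rose and 11.2% fell. The median there was 0.90, beside -0.18 over all genes, and 0.71 beside -0.11 with protein-coding nuclear genes only. The comparisons share the preMegE WT libraries, and 25 genes rose in both. The 5 genes called in neither were Bag3, Edem1, Hspa1b, Sel1l and Xbp1. Leaving out a library moved the count of calls in preCFU-E against preMegE between 20, without preMegE WT 1, and 32, without preMegE WT 3, beside 27 in all. With no filter on low counts the calls there on Hspa5, Hsp90b1, Hspa8, Hsp90aa1 and Ahsa1 were lost, that on Creld2 was lost without preMegE WT 1 or preCFU-E WT 3, and that on P4hb without preMegE WT 1. In preMegE against HSC it moved between 31, without preMegE WT 3, and 38, without preMegE WT 1.

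**Figure D2:**
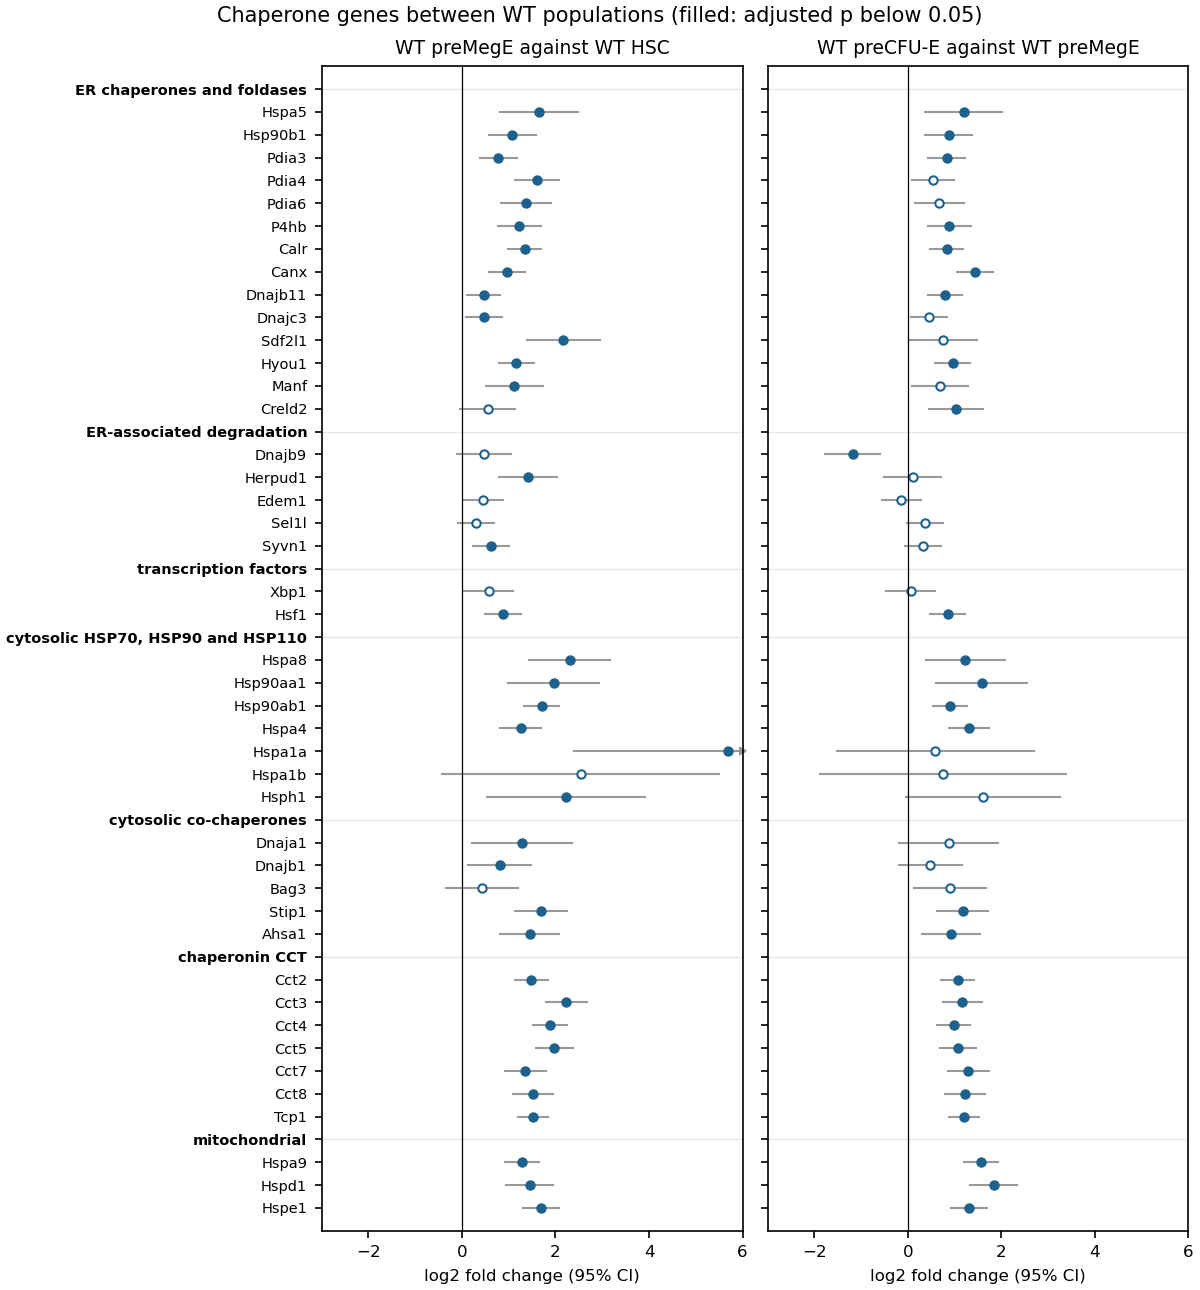
Log2 fold change (x axis) of each of the 43 genes, grouped by role, in WT preMegE against WT HSC and in WT preCFU-E against WT preMegE, with 95% intervals and calls marked. All 43 values lie above 0 in preMegE against HSC, and CCT and mitochondrial genes lie well above 0 in both comparisons, while Dnajb9 lies below 0 in preCFU-E against preMegE.

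Summed over the 43 genes and corrected for length, the level was 2646 ± 373, 7244 ± 2012 and 17294 ± 3417 CPM per kb in HSC, preMegE and preCFU-E of KO mice, and 2535 ± 171, 6870 ± 2200 and 15586 ± 5316 CPM per kb in those of WT mice (SD, n = 3 each). Without length, the genes summed to 39194 CPM in preCFU-E KO and 34561 CPM in preCFU-E WT, against 5148 CPM in HSC KO and 4961 CPM in HSC WT. These CPM are scaled by TMM factors and are not shares of the reads sequenced. From HSC to preCFU-E the classes differed in how far their summed level per kb went. In preCFU-E KO it was 8.74 times that of HSC KO for the cytosolic heat shock proteins, 8.86 times for the mitochondrial chaperones, 5.72 times for CCT, 5.33 times for the co-chaperones and 3.81 times for the ER chaperones. It was 1.47 times for the transcription factors and 1.498 times for ER-associated degradation. In WT mice the same ratios were 8.55, 8.32, 5.19, 4.33, 3.69, 1.82 and 1.13. These ratios are descriptions of summed levels and carry no test. They depend on effective length, which differed between groups for some genes. Edem1 had a mean of 26.6 CPM and 16.4 CPM per kb in HSC WT, against 33.2 CPM and 8.74 CPM per kb in preCFU-E WT. Without length, CCT summed to 552 CPM in HSC WT and 3817 CPM in preCFU-E WT. ER-associated degradation summed to 184 and 281 CPM there, and the transcription factors to 73.3 and 171 CPM. Each gives a larger ratio than per kb.

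**Figure D3:**
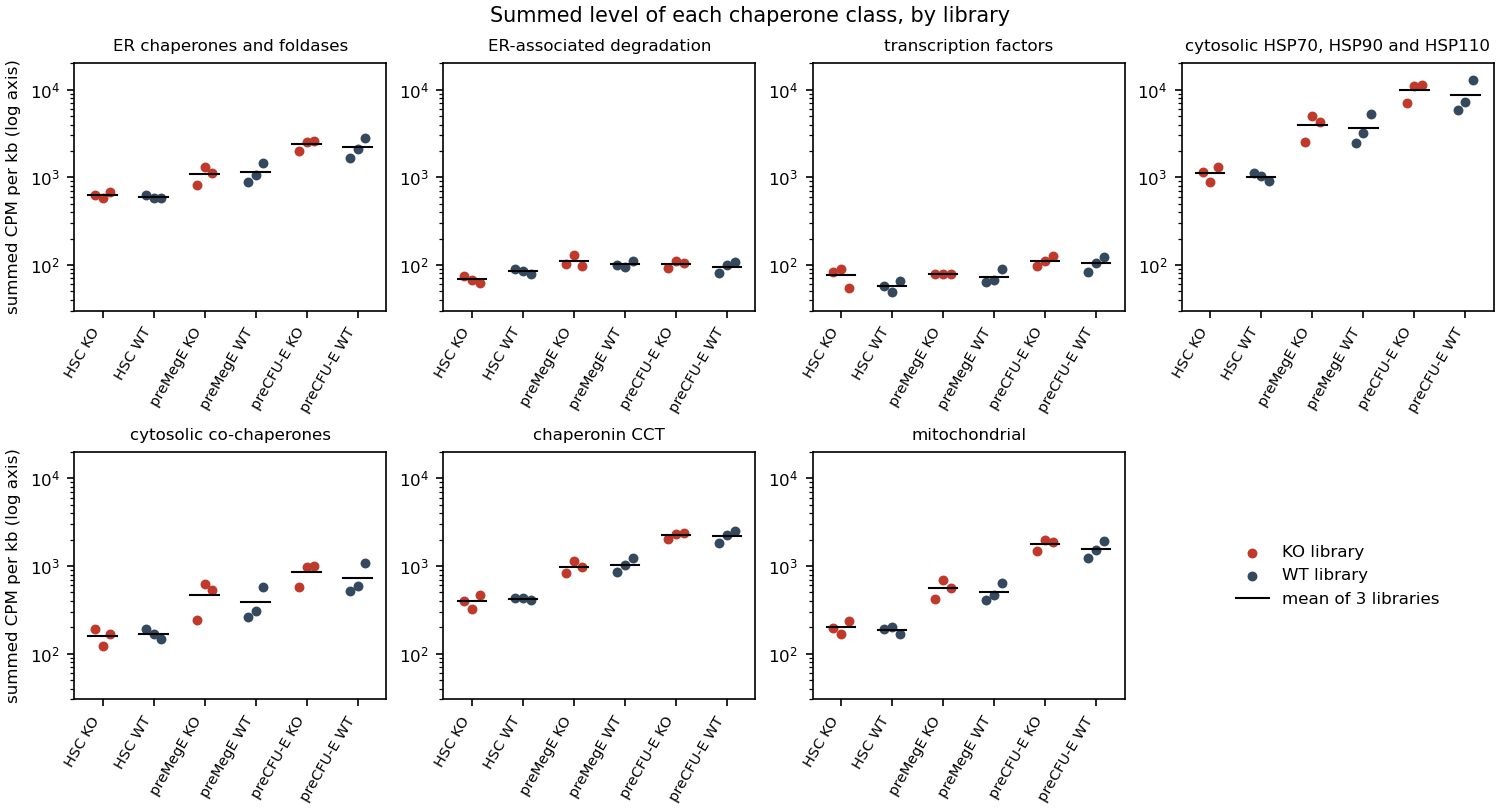
Summed level of each class in CPM per kb (log axis) in every library, with KO left of WT in HSC, preMegE and preCFU-E and the mean marked. Cytosolic heat shock proteins hold the highest sum in each population. KO and WT libraries overlap in each class and population except ER-associated degradation in HSC (62.6 to 74.6 CPM per kb in KO and 78.8 to 89.9 in WT). Without length that class overlaps in HSC too, at 113 to 177 CPM in KO and 173 to 191 CPM in WT libraries.

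The ER chaperones and foldases were led by Hsp90b1, the ER member of the HSP90 family, in all 6 groups per kb. It had 381, 275 and 469 CPM in HSC KO, 569.9, 884 and 753 CPM in preMegE KO and 1147, 1508 and 1546 CPM in preCFU-E KO libraries. In WT it had 410.0, 335 and 317 CPM in HSC WT, 606, 665 and 968 CPM in preMegE WT and 955, 1272 and 1882 CPM in preCFU-E WT libraries, and it rose in preMegE against HSC (log2 fold change 1.08, SE 0.24, adjusted p = 0.00110) and in preCFU-E against preMegE (log2 fold change 0.88, SE 0.24, adjusted p = 0.00923). The second call was lost without preMegE WT 1, preMegE WT 2 or preCFU-E WT 3. Hspa5 encodes BiP, the ER HSP70 that also holds the stress sensors inactive, and it had 235, 83.8 and 203 CPM in HSC KO, 277, 539.8 and 431 CPM in preMegE KO and 849.9, 1222 and 1279 CPM in preCFU-E KO libraries. In WT mice it had 144, 127 and 136 CPM in HSC WT, 279.6, 396 and 603 CPM in preMegE WT and 624, 962 and 1338 CPM in preCFU-E WT libraries. The populations did not overlap in WT, while KO and WT overlapped in each, with HSC KO 2 lowest of all 18 libraries. Hspa5 rose in preMegE (log2 fold change 1.65, SE 0.39, adjusted p = 0.00285) and in preCFU-E (log2 fold change 1.19, SE 0.38, adjusted p = 0.0322). The preCFU-E call was lost without preMegE WT 1, preMegE WT 2, preCFU-E WT 2 or preCFU-E WT 3, where adjusted p lay at 0.0964 to 0.165. Its KO values were 0.36 (SE 0.38) in HSC, -0.04 (SE 0.38) in preMegE and 0.20 (SE 0.38) in preCFU-E, with adjusted p of 0.738, 1 and 1.

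Of the 14 ER genes, 13 rose in preMegE against HSC and 9 in preCFU-E against preMegE. Canx, the membrane-bound lectin chaperone calnexin, had the largest rise of the class in the second comparison. Its levels were 259.8, 255 and 268 CPM in HSC WT, 449, 484 and 597 CPM in preMegE WT and 1132, 1417 and 1601 CPM in preCFU-E WT libraries (log2 fold change 1.44, SE 0.18, adjusted p = 4.55e-06). All 3 preCFU-E WT libraries lay above all 3 preMegE WT libraries. Calr, the soluble lectin chaperone calreticulin, rose in both comparisons (log2 fold change 1.34, SE 0.17, adjusted p = 2.50e-06 and log2 fold change 0.83, SE 0.17, adjusted p = 7.91e-04). Its preCFU-E levels were 365, 442 and 401 CPM in preCFU-E KO libraries, against 289, 331 and 423 CPM in preCFU-E WT libraries (log2 fold change 0.21, SE 0.17, adjusted p = 1), and these groups overlapped. The disulfide isomerases P4hb and Pdia3 rose in both comparisons, and Pdia4 and Pdia6 in preMegE against HSC with 1.61 and 1.38. Sdf2l1, which partners BiP and its J-domain proteins, had the largest rise of the class in preMegE (log2 fold change 2.16, SE 0.38, adjusted p = 8.09e-05) at a low level, with 10.2, 15.2 and 24.7 CPM in preMegE WT against 3.27, 1.84 and 6.09 CPM in HSC WT libraries.

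The remaining ER genes are partners of BiP or secreted helpers. Dnajb11, a J-domain partner, rose in both comparisons, by 0.46 and 0.80, and Dnajc3, another, rose by 0.47 in preMegE. Both calls in preMegE were lost under several alternatives. Creld2, a secreted protein of the stress response, was the sole ER gene not called in preMegE (0.55, adjusted p = 0.105) and rose in preCFU-E (1.03, adjusted p = 0.00818). Hyou1, the large HSP70 that exchanges nucleotide on BiP, had 55.1, 54.5 and 48.8 CPM in HSC KO libraries, against 41.1, 32.5 and 42.3 CPM in HSC WT libraries (log2 fold change 0.45, SE 0.18, adjusted p = 0.265). All 3 HSC KO libraries were above all 3 HSC WT libraries, but the difference did not pass the test over all genes. Manf, a small secreted survival factor that binds BiP, had 11.0, 24.7 and 13.9 CPM in HSC KO libraries, against 12.9, 9.84 and 9.32 CPM in HSC WT libraries (log2 fold change 0.63, SE 0.29, adjusted p = 0.346). The high value was HSC KO 2, and the groups overlapped. Manf overlaps Dcaf1 on the opposite strand by 146 exonic bases, and Dcaf1 held 566% as many reads as Manf.

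ER-associated degradation returns misfolded proteins to the cytosol for destruction. Of its 5 genes, 2 rose and 3 were not called in preMegE against HSC. In preCFU-E against preMegE, 1 fell and 4 were not called, the 4 having unadjusted p values of 0.0566 to 0.722 in edgeR. The gene that fell was Dnajb9, a J-domain protein of the ER that passes clients to degradation and is strongly induced by XBP1. It had 21.2, 6.93 and 17.0 CPM in HSC KO, 35.7, 41.9 and 37.7 CPM in preMegE KO and 12.5, 16.7 and 12.9 CPM in preCFU-E KO libraries. Its WT levels were 30.6, 17.97 and 23.7 CPM in HSC WT, 32.8, 32.6 and 34.9 CPM in preMegE WT and 12.2, 15.8 and 16.4 CPM in preCFU-E WT libraries. Each preCFU-E WT library was below each preMegE WT library (log2 fold change -1.18, SE 0.28, adjusted p = 0.00306), and the same order held in KO. With length-scaled counts the value was -0.99 and adjusted p was 0.110. In HSC the KO value of Dnajb9 was -0.68 (SE 0.28, adjusted p = 0.281), with HSC KO 2 lowest.

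Herpud1, a membrane scaffold of the degradation complex, rose in preMegE against HSC (log2 fold change 1.41, SE 0.30, adjusted p = 5.94e-04). In preCFU-E it had 28.8, 39.5 and 31.9 CPM in preCFU-E KO libraries, against 18.6, 27.2 and 33.9 CPM in preCFU-E WT libraries (log2 fold change 0.33, SE 0.29, adjusted p = 1), and those groups overlapped. Syvn1 encodes the ubiquitin ligase HRD1 and rose in preMegE (log2 fold change 0.62, SE 0.18, adjusted p = 0.00815), although Mrpl49 on the opposite strand overlaps it and held 87.0% as many reads. That call was lost with protein-coding nuclear genes only. In HSC Syvn1 had 19.6, 23.5 and 20.9 CPM in HSC KO libraries, against 20.9, 25.5 and 34.1 CPM in HSC WT libraries (log2 fold change -0.33, SE 0.18, adjusted p = 0.451). Sel1l, the adaptor of HRD1, had 86.3, 50.1 and 83.5 CPM in HSC KO libraries, against 104, 93.9 and 95.7 CPM in HSC WT libraries (log2 fold change -0.41, SE 0.18, adjusted p = 0.311). All HSC KO libraries were below all HSC WT libraries for Sel1l, and for Syvn1 they overlapped. Edem1, which delivers glycoproteins to the complex, had log2 fold changes of 0.46 (adjusted p = 0.0579) in preMegE against HSC and -0.14 (adjusted p = 0.664) in preCFU-E against preMegE. The first was called higher with no filter, without HSC WT 3 and without preMegE WT 1, and called lower with length-scaled counts (-0.65, adjusted p = 0.0287).

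Both transcription factors lay at moderate levels. Xbp1 encodes the factor made active when IRE1 cuts a short intron from its RNA, and it had 63.3, 64.3 and 32.1 CPM in HSC KO, 59.5, 75.6 and 71.5 CPM in preMegE KO and 68.7, 83.3 and 86.9 CPM in preCFU-E KO libraries. In WT libraries it had 38.1, 34.8 and 48.4 CPM in HSC WT, 47.0, 51.6 and 81.7 CPM in preMegE WT and 44.9, 62.4 and 80.6 CPM in preCFU-E WT libraries. KO and WT overlapped in each population. Its log2 fold change was 0.57 (adjusted p = 0.0603) in preMegE against HSC and 0.06 (adjusted p = 0.899) in preCFU-E against preMegE. The first passed the threshold with no filter and without HSC WT 3, preMegE WT 1 or preMegE WT 2, and the second changed sign under several alternatives. Its KO values were 0.40, 0.20 and 0.35 in HSC, preMegE and preCFU-E, with SE of 0.25, 0.25 and 0.25 and adjusted p of 0.515, 1 and 1. The cut and uncut forms of Xbp1 were not analysed here, because the shortest intron among its 4 annotated transcripts has 300 bases.

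Hsf1, the main activator of heat shock genes, had 44.7, 43.5 and 34.8 CPM in HSC KO, 70.3, 44.8 and 59.6 CPM in preMegE KO and 99.0, 111 and 129 CPM in preCFU-E KO libraries. The levels in WT mice were 30.6, 26.7 and 41.2 CPM in HSC WT, 58.0, 57.6 and 64.9 CPM in preMegE WT and 93.7, 109 and 123 CPM in preCFU-E WT libraries, and Hsf1 rose in preMegE against HSC (log2 fold change 0.87, SE 0.18, adjusted p = 5.23e-04) and in preCFU-E against preMegE (log2 fold change 0.85, SE 0.18, adjusted p = 0.00111). Every preCFU-E library was above every preMegE library in both genotypes. Its KO values were 0.32 (SE 0.18), -0.05 (SE 0.18) and 0.06 (SE 0.18) in HSC, preMegE and preCFU-E, with adjusted p of 0.458, 1 and 1.

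The cytosolic heat shock proteins had a higher summed level per kb than any other class in each of the 6 groups. Hspa8, the constitutive HSP70 called HSC70, was the highest member per kb in both progenitor populations, at 4450.4 ± 1062 CPM per kb in preCFU-E KO and 3749.6 ± 1578 CPM per kb in preCFU-E WT (SD, n = 3 each). Its levels were 793, 570.2 and 893 CPM in HSC KO, 2369.8, 5247 and 4468 CPM in preMegE KO and 7042, 11200.2 and 11131 CPM in preCFU-E KO libraries. In WT they were 886, 674 and 590.1 CPM in HSC WT, 2148, 2980.5 and 5468 CPM in preMegE WT and 5284, 7423 and 12094 CPM in preCFU-E WT libraries. Hspa8 rose in preMegE against HSC (log2 fold change 2.30, SE 0.41, adjusted p = 3.56e-04), the largest rise there after that of Hspa1a. It rose again in preCFU-E (log2 fold change 1.23, SE 0.39, adjusted p = 0.0321), a call lost without preMegE WT 1, preMegE WT 2, preCFU-E WT 2 or preCFU-E WT 3, and with only these populations fitted (adjusted p = 0.0664). Its KO values were 0.07 (SE 0.39), 0.19 (SE 0.39) and 0.24 (SE 0.39) in HSC, preMegE and preCFU-E, with adjusted p of 0.961, 1 and 1.

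Hsp90aa1 and Hsp90ab1 encode the inducible and the constitutive form of cytosolic HSP90. Hsp90ab1, the highest member per kb in HSC KO at 418 ± 51.6 CPM per kb, rose in both comparisons (log2 fold change 1.71, SE 0.18, adjusted p = 1.83e-07 and log2 fold change 0.90, SE 0.18, adjusted p = 5.24e-04). Hsp90aa1 had 495, 384 and 712 CPM in HSC KO, 994, 3065 and 2144 CPM in preMegE KO and 4627, 7644 and 7501 CPM in preCFU-E KO libraries. The levels in WT mice were 549, 478 and 446 CPM in HSC WT, 1254, 1621 and 2849 CPM in preMegE WT and 3646, 4438 and 8993 CPM in preCFU-E WT libraries. In preCFU-E WT, replicate 3 lay far above the other two. The gene rose in preMegE (log2 fold change 1.96, SE 0.45, adjusted p = 0.00292) and in preCFU-E (log2 fold change 1.58, SE 0.45, adjusted p = 0.0182), the second call being lost without preMegE WT 1, preMegE WT 2 or preCFU-E WT 3 (adjusted p of 0.105, 0.0814 and 0.112). Its KO values were 0.11 (SE 0.44), 0.12 (SE 0.44) and 0.21 (SE 0.44) in HSC, preMegE and preCFU-E, with adjusted p of 0.943, 1 and 1.

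Per kb, the ratio of Hsp90aa1 to Hsp90ab1 was 0.422, 0.391 and 0.621 in HSC KO libraries, against 0.556, 0.454 and 0.519 in HSC WT libraries. In preMegE it was 0.490, 0.908 and 0.644 in KO libraries, against 0.527, 0.591 and 0.811 in WT libraries. In preCFU-E it was 0.947, 1.37 and 1.29 in KO libraries, against 0.928, 0.893 and 1.89 in WT libraries. The constitutive form was thus the higher in all HSC and preMegE libraries, and the forms stood near parity in preCFU-E, with WT 3 highest. KO and WT overlapped in each population.

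Hspa1a and Hspa1b encode the strongly heat-inducible HSP70 and are nearly identical, so that their reads may be divided wrongly between them. Hspa1a had 0, 0 and 0 CPM in HSC KO, 2.35, 17.2 and 6.50 CPM in preMegE KO and 1.14, 13.3 and 2.83 CPM in preCFU-E KO libraries. In WT it had 0.0761, 0 and 0 CPM in HSC WT, 0.525, 0.625 and 4.33 CPM in preMegE WT and 2.58, 1.04 and 4.62 CPM in preCFU-E WT libraries. HSC were at or near 0 in both genotypes, and no fold change is given for HSC KO against HSC WT. The 2 reads of all HSC WT libraries set against 122 reads of all preMegE WT libraries gave a ratio of 56.1 (95% interval 15.2 to 468, covering counting error only), and Hspa1a was called higher in preMegE WT (adjusted p = 0.00684). Against 3 reads over the group as the floor, Hspa1a as listed was at least 198-fold higher in preMegE KO than in HSC KO. Both ratios and the call depend on how reads were divided between Hspa1a and Hspa1b. The sum of both genes was 0.0884 to 0.964 CPM in HSC KO and 6.95 to 36.4 CPM in preMegE KO libraries. In WT libraries the sums overlapped, at 0.0946 to 1.37 CPM in HSC and 1.13 to 13.7 CPM in preMegE. In preMegE the KO value of Hspa1a was 2.26 (SE 1.00, adjusted p = 0.982), with overlapping groups, and in preCFU-E it was 1.08 (SE 0.98, adjusted p = 1). In preCFU-E against preMegE of WT it was 0.59 (SE 0.99, adjusted p = 0.718).

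Hspa1b had 0.495, 0.964 and 0.0884 CPM in HSC KO, 4.60, 19.2 and 10.8 CPM in preMegE KO and 2.199, 27.5 and 13.6 CPM in preCFU-E KO libraries. Its WT levels were 1.29, 0.0946 and 0.353 CPM in HSC WT, 0.606, 0.808 and 9.33 CPM in preMegE WT and 1.76, 1.82 and 14.6 CPM in preCFU-E WT libraries. Libraries of 1 group differed several-fold in the progenitors. None of its comparisons was called: KO values were -0.22 (SE 1.48), 1.70 (SE 1.23) and 1.27 (SE 1.21) in HSC, preMegE and preCFU-E, and the WT values were 2.54 (adjusted p = 0.131) in preMegE and 0.75 (adjusted p = 0.708) in preCFU-E. The sum of both genes was 6.95, 36.4 and 17.2 CPM in preMegE KO libraries, against 1.13, 1.43 and 13.7 CPM in preMegE WT libraries. In preCFU-E it was 3.33, 40.8 and 16.4 CPM in KO libraries, against 4.34, 2.86 and 19.3 CPM in WT libraries. In HSC it was at most 0.964 CPM in KO and 1.37 CPM in WT libraries. KO and WT overlapped in each population.

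The HSP110 proteins serve as exchange factors of HSP70. Hsph1, the inducible form, had 52.0, 35.6 and 52.9 CPM in HSC KO, 112, 516 and 378 CPM in preMegE KO and 485, 1322 and 1219 CPM in preCFU-E KO libraries. The levels in WT mice were 72.0, 25.8 and 44.6 CPM in HSC WT, 99.2, 119 and 452 CPM in preMegE WT and 333, 406 and 1302 CPM in preCFU-E WT libraries. Libraries of 1 group again differed several-fold, WT 3 being far above WT 1 and WT 2 in both progenitors and KO 1 far below KO 2 and KO 3. Hsph1 rose in preMegE against HSC (log2 fold change 2.23, SE 0.78, adjusted p = 0.0288), a call lost without HSC WT 2, HSC WT 3 or preMegE WT 3, where adjusted p was 0.0924, 0.0725 and 0.182, and with length-scaled counts (1.57, adjusted p = 0.0566). Hspa4, the more constant form, rose in both comparisons (log2 fold change 1.25, SE 0.21, adjusted p = 5.43e-05 and log2 fold change 1.31, SE 0.21, adjusted p = 6.55e-05). In preMegE it had 258, 395 and 329.6 CPM in preMegE KO libraries, against 319, 404 and 459 CPM in preMegE WT libraries (log2 fold change -0.27, SE 0.21, adjusted p = 1), and the groups overlapped.

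Among the co-chaperones, Dnaja1, a J-domain partner of HSP70, was highest per kb, at 445 ± 149 CPM per kb in preCFU-E KO and 383 ± 214 in preCFU-E WT. It rose in preMegE against HSC (log2 fold change 1.29, SE 0.50, adjusted p = 0.0422), as did Dnajb1 (log2 fold change 0.81, SE 0.32, adjusted p = 0.0404), and both calls were lost under several alternatives. Smu1 overlaps Dnaja1 on the opposite strand and held 20.7% as many reads. Stip1, which hands clients from HSP70 to HSP90, rose in both comparisons (log2 fold change 1.69, SE 0.27, adjusted p = 4.17e-05 and log2 fold change 1.17, SE 0.26, adjusted p = 0.00202). Ahsa1, an activator of the HSP90 ATPase, rose in preMegE (1.45) and in preCFU-E (0.93, adjusted p = 0.0244), the second call being lost without any one of 5 of the 6 libraries, all but preMegE WT 3. Bag3, which links HSP70 to autophagy, was called in neither.

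Bag3 had the lowest p of the 43 genes for the KO in preCFU-E. It had 25.9, 65.6 and 52.2 CPM in preCFU-E KO libraries, against 20.4, 21.5 and 41.2 CPM in preCFU-E WT libraries (log2 fold change 0.80, SE 0.36, adjusted p = 1). The groups overlapped, KO 2 and KO 3 being the highest of the 6 libraries. In preMegE it had 12.4, 21.3 and 26.9 CPM in preMegE KO libraries, against 12.9, 12.02 and 19.5 CPM in preMegE WT libraries (log2 fold change 0.45, SE 0.37, adjusted p = 1). Dnajb1, the HSP40 that activates HSP70 at aggregates, had 35.5, 79.5 and 60.7 CPM in preMegE KO libraries, against 38.6, 34.6 and 47.7 CPM in preMegE WT libraries (log2 fold change 0.54, SE 0.32, adjusted p = 1). In preCFU-E it had 47.6, 108 and 75.2 CPM in preCFU-E KO libraries, against 49.4, 51.9 and 67.5 CPM in preCFU-E WT libraries (log2 fold change 0.45, SE 0.32, adjusted p = 1). In both populations KO 1 lay among or below the WT libraries, and KO 2 and KO 3 lay above them all.

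The Dnajb1 transcripts differed by genotype in HSC while its total did not pass the test. Transcript usage was tested in 23 of the 43 genes that have several transcripts of at least 5% of the gene's TPM, an abundance per length. In HSC 2 of the 23 were called, where 4.36% of 9361 genes were. In preMegE and preCFU-E 0 were called by diffSpliceDGE, where 0.139% and 0.235% of all genes were called. At an unadjusted p under 0.05 there was 1 gene in each (Herpud1 and Syvn1). The share of all genes at that unadjusted level was not counted. Dnajb1-202 (chr8:83608553-83612653, plus strand, GRCm38) starts inside Dnajb1-201 (chr8:83608193-83612653), and it was listed at 0 in all 3 HSC KO libraries, against 22.4%, 69.1% and 58.3% of Dnajb1 TPM in HSC WT libraries, from 158.6, 395.5 and 151.6 estimated reads (adjusted p = 7.96e-04). Over the alternatives the adjusted p was 5.16e-04 to 0.0343. In preMegE the share was 32.2%, 5.54% and 18.5% in KO libraries, against 3.90%, 10.9% and 12.9% in WT libraries. In preCFU-E it was 8.33%, 5.95% and 0 in KO libraries, against 17.4%, 7.34% and 9.21% in WT libraries. The genotypes overlapped in both progenitors, and a listed 0 can be Salmon's failure to assign reads between 2 overlapping transcripts. The difference between populations was not tested.

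**Figure D4:**
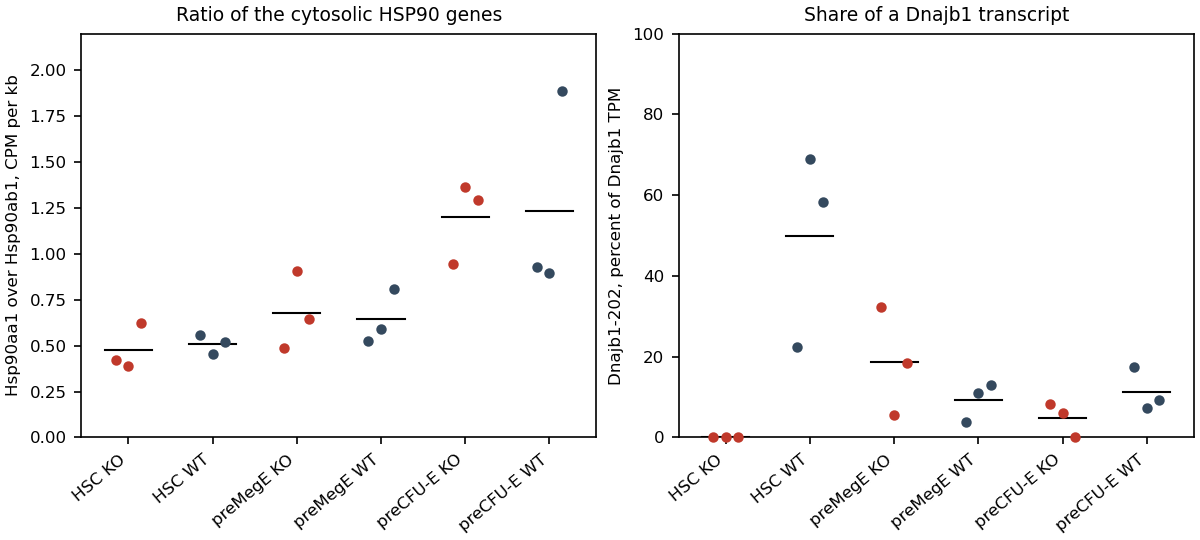
Left, the ratio of Hsp90aa1 to Hsp90ab1 in CPM per kb, and right, the share of Dnajb1-202 in Dnajb1 TPM (percent), for every library with KO left of WT in each population. The ratio is highest in preCFU-E, with KO and WT overlapping, and the Dnajb1-202 share is 0 in all HSC KO libraries and 22.4% to 69.1% in HSC WT libraries.

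CCT folds actin and tubulin in a ring of 8 different subunits, and all 7 listed subunits rose in both comparisons. Log2 fold changes were 1.36 to 2.23 in preMegE against HSC and 0.98 to 1.30 in preCFU-E against preMegE, and all 14 calls held under every alternative tried. Tcp1, the subunit alpha and highest of the 7 per kb, had 144, 110.2 and 161 CPM in HSC KO, 337, 413 and 375 CPM in preMegE KO and 830.2, 958 and 962 CPM in preCFU-E KO libraries. The levels in WT mice were 123, 147 and 148 CPM in HSC WT, 337, 399.8 and 457 CPM in preMegE WT and 774, 938 and 1035 CPM in preCFU-E WT libraries (log2 fold change 1.51, SE 0.15, adjusted p = 1.11e-07 in preMegE and log2 fold change 1.203, SE 0.15, adjusted p = 4.03e-06 in preCFU-E). The 3 populations did not overlap in either genotype. Mrpl18 overlaps Tcp1 on the opposite strand and held 15.8% as many reads. Usp16 overlaps Cct8 in the same way and held 36.8% as many reads as Cct8. Cct7 was lowest of the 7, at 185 ± 27.2 CPM per kb in preCFU-E KO and 181 ± 37.8 in preCFU-E WT. The eighth subunit, Cct6a, lies outside the list and had 11.6 to 13.7 times the per-length level of Cct7 over the 6 groups.

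Cct3, the subunit gamma, had the largest rise of the class in preMegE against HSC (log2 fold change 2.23, SE 0.21, adjusted p = 3.12e-08) and the lowest p of the 43 genes for the KO in HSC. It had 28.8, 36.2 and 47.5 CPM in HSC KO libraries, against 30.1, 22.2 and 25.0 CPM in HSC WT libraries (log2 fold change 0.54, SE 0.20, adjusted p = 0.227). KO 1 lay within the WT libraries and KO 2 and KO 3 above them. In usage, Cct3-204 (chr3:88297174-88321766, plus strand, GRCm38) took 0, 9.70% and 9.52% of Cct3 TPM in HSC KO libraries, against 0 in all 3 HSC WT libraries (adjusted p = 0.0144). The call was lost without HSC WT 1, HSC WT 2 or HSC WT 3 (adjusted p = 0.0763, 0.0567 and 0.0607), and with HSC libraries alone (adjusted p = 1). A retained intron transcript, Cct3-203, took 58.5% ± 10.1 of Cct3 TPM in HSC KO and 73.6% ± 2.46 in HSC WT libraries (SD, n = 3 each). Its own unadjusted p by diffSpliceDGE was 0.415. The other subunits, Cct2, Cct4, Cct5 and Cct8, had HSC KO values between -0.20 and 0.20, and none was called.

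All 3 mitochondrial chaperones rose in both comparisons, and Hspd1 had the largest rise of the 43 genes in preCFU-E against preMegE. Hspd1, the HSP60 ring, and Hspe1, its HSP10 lid, are transcribed away from the shared promoter shown above. Hspd1 had 182, 153 and 255 CPM in HSC KO, 446, 726 and 601 CPM in preMegE KO and 1713, 2464 and 2407 CPM in preCFU-E KO libraries. In WT it had 205, 209.8 and 169.6 CPM in HSC WT, 413, 469 and 710.2 CPM in preMegE WT and 1417, 1774 and 2479.7 CPM in preCFU-E WT libraries, and it rose in preMegE (log2 fold change 1.45, SE 0.24, adjusted p = 7.15e-05) and in preCFU-E (log2 fold change 1.83, SE 0.24, adjusted p = 1.16e-05). Each population lay above the previous stage in both genotypes, without overlap. Its KO values were 0.01 (SE 0.24), 0.15 (SE 0.24) and 0.22 (SE 0.24) in HSC, preMegE and preCFU-E, with adjusted p of 0.990, 1 and 1.

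Hspe1 rose in both comparisons (log2 fold change 1.69, SE 0.19, adjusted p = 3.26e-07 and log2 fold change 1.31, SE 0.18, adjusted p = 1.27e-05). In preMegE it had 69.5, 121 and 102 CPM in preMegE KO libraries, against 78.1, 72.9 and 98.2 CPM in preMegE WT libraries (log2 fold change 0.23, SE 0.18, adjusted p = 1). In preCFU-E it had 213, 279.8 and 242 CPM in preCFU-E KO libraries, against 184, 202 and 232 CPM in preCFU-E WT libraries (log2 fold change 0.25, SE 0.18, adjusted p = 1). Both pairs of groups overlapped. Hspe1 shares 112 exonic bases with Hspd1 on the opposite strand, and Hspd1 held 799% as many reads as Hspe1. Reads divided wrongly between them would also change their ratio. Per kb, Hspd1 was 1.37 ± 0.296, 1.21 ± 0.0800 and 1.74 ± 0.178 times Hspe1 in HSC, preMegE and preCFU-E of KO mice, and 1.49 ± 0.105, 1.25 ± 0.150 and 1.75 ± 0.236 times in WT mice (SD, n = 3 each). Hspa9, the mitochondrial HSP70 that pulls precursors through the inner membrane, had 90.9, 69.7 and 107 CPM in HSC KO, 162, 228 and 195 CPM in preMegE KO and 592, 678 and 700.2 CPM in preCFU-E KO libraries. In WT mice it had 90.4, 90.3 and 81.4 CPM in HSC WT, 168, 222 and 249.7 CPM in preMegE WT and 522, 664 and 704 CPM in preCFU-E WT libraries and it rose in both comparisons (log2 fold change 1.29, SE 0.17, adjusted p = 3.60e-06 and log2 fold change 1.56, SE 0.17, adjusted p = 6.48e-07). Its stages did not overlap in either genotype.

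Within groups of the progenitors, whole libraries were high or low for nearly every member. In preCFU-E KO, replicate 1 was lowest for 42 of 43 members, and in preMegE KO, replicate 1 was lowest for 40 and replicate 2 highest for 33. In preCFU-E WT, replicate 3 was the highest of its group for 43 of 43 members and replicate 1 the lowest for 42. In preMegE WT, replicate 3 was highest for 42 and replicate 1 lowest for 37. In HSC KO, replicate 2 was lowest for 30, and in HSC WT no replicate was highest or lowest for more than 23. The share of all genes with the same order was not counted. On the first principal component of all genes tested (64.1% of the variance), replicate 1 was also lowest in each progenitor group. Replicates 1 to 3 lay there at 144, 146 and 152 in preCFU-E KO and at 114, 147 and 155 in preCFU-E WT. They lay at 3.08, 29.5 and 35.4 in preMegE KO and at 19.1, 34.3 and 51.3 in preMegE WT. The cytosolic heat shock proteins had the widest spread of the classes in preMegE KO, preMegE WT and preCFU-E WT, but not in preCFU-E KO, where co-chaperones did (median SD 0.49), or in HSC, where ER-associated degradation did (0.44 in HSC KO and 0.35 in HSC WT). For the heat shock proteins the median SD of log2 levels was 0.83 in preMegE KO and 0.68 in preMegE WT, 0.41 in preCFU-E KO and 0.68 in preCFU-E WT, and 0.34 in HSC KO and 0.23 in HSC WT. For CCT it was 0.22 and 0.30 in preMegE KO and preMegE WT, 0.12 and 0.24 in preCFU-E KO and preCFU-E WT, and 0.36 and 0.14 in HSC KO and HSC WT. Mitochondrial ribosomal RNA took 28.8%, 27.0% and 12.7% of reads in preCFU-E KO libraries and 17.3%, 14.3% and 19.4% in preCFU-E WT libraries. In preMegE it took 21.7%, 25.8% and 17.8% in KO and 23.6%, 14.7% and 14.2% in WT libraries. Its part in the spread was not tested. As the median over the 7 cytosolic heat shock genes, preCFU-E WT 3 lay 0.77 above its group mean on the log2 scale, and preMegE KO 1 lay at -0.91. For CCT the median deviation of a library ran from -0.31 to 0.31.

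**Figure D5:**
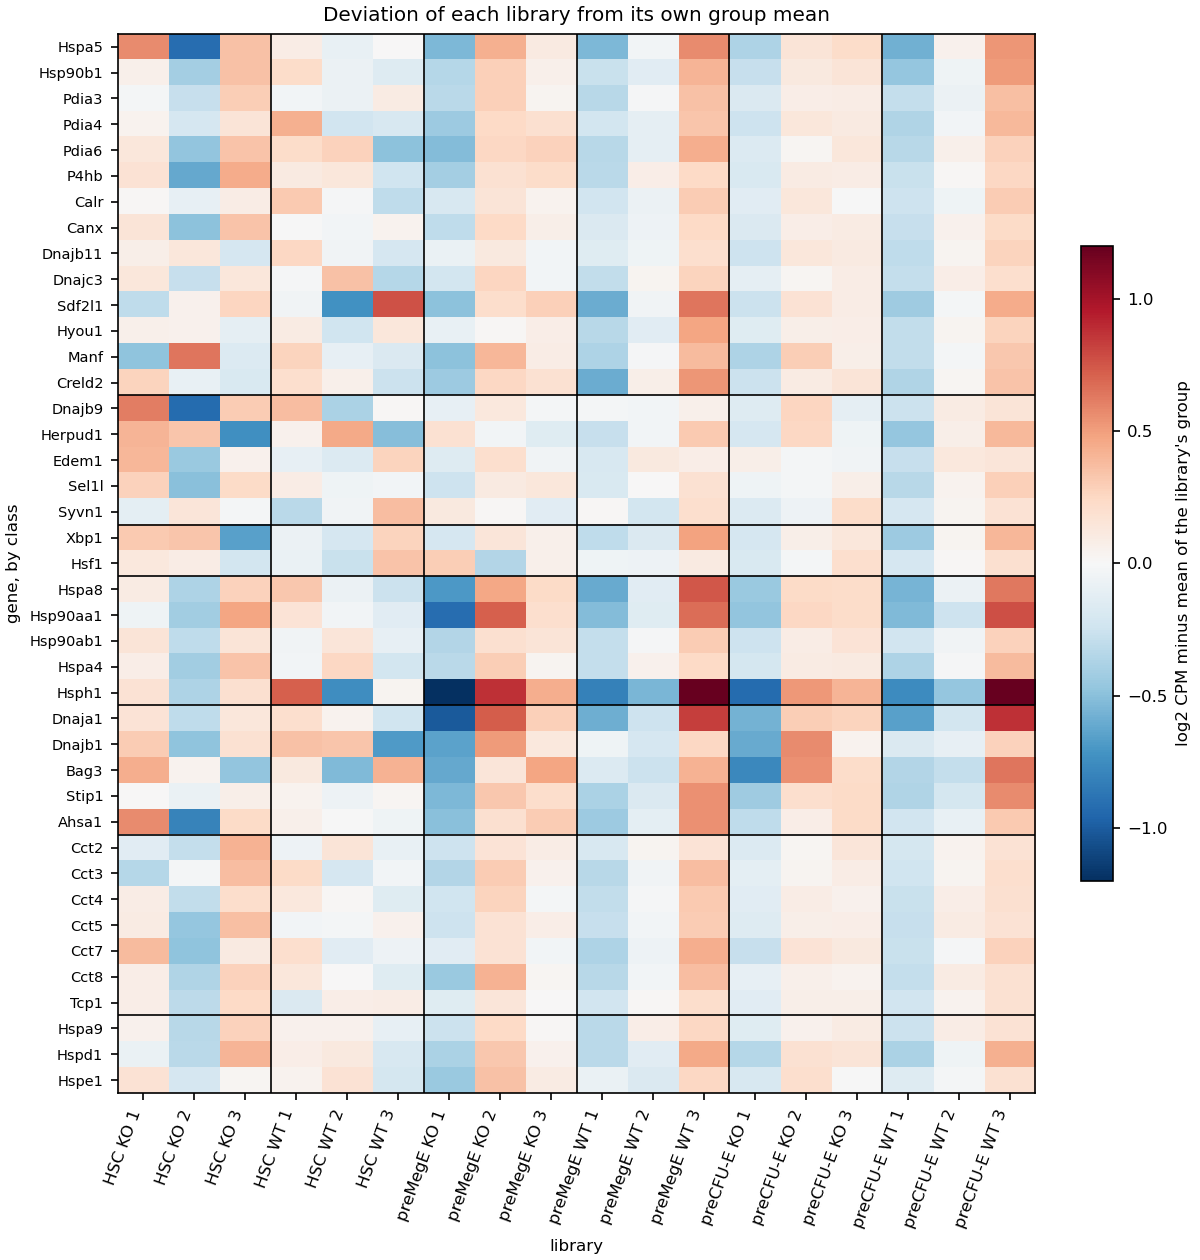
Deviation of each gene (rows, grouped by role, Hspa1a and Hspa1b left out for their few reads) from its group mean of log2 CPM in each of the 18 libraries (columns), with red above and blue below the mean and colours saturating beyond the ends of the scale. Whole columns are red or blue, such as preCFU-E WT 3 and preMegE KO 1, and Hsph1 varies most in the progenitors.

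Of 81 other genes of protein folding, listed by name and not among the 43, 80 could be tested. By edgeR 0 of these were called in KO against WT in any population, with 13, 6 and 2 at an unadjusted p under 0.05 in HSC, preMegE and preCFU-E, where 13.7%, 4.92% and 3.68% of all genes had one. DESeq2 called 2, 1 and 0 of them and voom 0, 0 and 0. The share of all genes that DESeq2 called was not counted, so its calls cannot be set against a background. In WT preMegE against WT HSC 58 rose and 3 fell, with a median log2 fold change of 0.84, where 25.5% of all genes rose and 28.2% fell. The largest rises were in Mogs (2.24), which trims glucose from new glycoproteins, in Sdf2 (2.07), a relative of Sdf2l1, and in Grpel1 (1.95), the exchange factor of the mitochondrial HSP70. The 3 that fell were Ern1 (-1.07), which encodes the stress sensor IRE1, Uggt2 (-0.89), which checks glycoprotein folding, and the small heat shock gene Hspb8, with at most 1 read in each preMegE WT library against 13 to 17 reads in each HSC WT library. In WT preCFU-E against WT preMegE 40 rose and 4 fell, with a median of 0.62, where 15.6% of all genes rose and 11.2% fell. Htra2 (1.91), a mitochondrial protease, Mogs (1.42) and the prefoldin subunit Pfdn6 (1.35) rose most. Ern1 (-0.99), Ppp1r15a (-1.01), the stress-induced phosphatase subunit GADD34, and Ero1lb (-1.01), an ER oxidase, fell, as did the small heat shock gene Cryab, with 0 reads in all 3 preCFU-E WT libraries against 5 to 15 reads in preMegE WT libraries. By list, the 10 sensors and effectors of the unfolded protein response had 2 rises and 2 falls in that comparison, and the 15 other mitochondrial genes 12 rises and 0 falls.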

How the data were processed

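RNA from 18 libraries, 3 biological replicates in each of 6 groups, was amplified with NuGEN Ovation kits, per the labels' protocols. Per the submitters' processing notes the authors used Salmon 0.12.0 and the builds mm10 and GRCm38.p6, and the deposited files give estimated counts per transcript as Salmon wrote them, neither rounded nor normalized. The same deposited files give TPM, which Salmon scales by effective length and library, so that TPM keep no depth. Strand is not given in the sources used here. Of 136288 transcripts, 136176 were matched to GENCODE M21, and estimated counts were summed to 53458 genes and rounded to whole numbers. Reads shared by overlapping genes on opposite strands or by near-identical copies such as Hspa1a and Hspa1b may be divided wrongly.

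Genes passing edgeR's filterByExpr (21565) were fitted across all 18 libraries with 6 group means, TMM factors and robust quasi-likelihood (edgeR 4.0.16, limma 3.58.1, R 4.3.3), with 12 residual degrees of freedom. Two-sided p-values were adjusted over all genes by Benjamini-Hochberg, and a gene was called below 0.05. SE was the fold change over the square root of F. Levels per kb used effective length. Transcript usage was tested with diffSpliceDGE. The fits were tested on simulated counts. Alternatives were RLE factors, no filter, DESeq2 1.42.0, voom, only the populations compared, a replicate block, length-scaled counts, protein-coding nuclear genes only, and each library left out. Promoters came from RefSeq.

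The members, the lists and the rule for named genes were chosen with earlier results of these data known. The rule gave in full the genes called for the KO or, where fewer than 6 were called, the 6 of lowest p, the 4 largest changes of each WT comparison, the highest member of each class per length and 8 well-known members. For genes outside the list it named those called for the KO and the 3 largest changes in each direction. Names given beyond the rule were chosen after their values were seen.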

Additional observations from a re-analysis of the deposited data

How the results depend on the processing

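No chaperone gene was called for the KO in any population under any of the alternatives. Calls in WT preMegE against WT HSC numbered 31 to 38, with 30 genes called in every setting, and those in WT preCFU-E against WT preMegE 20 to 32, with 19 in every setting. With length-scaled counts 1 gene, Edem1, was lower in preMegE (-0.65) and 0 in preCFU-E. Scaling moved the all-gene median in preMegE against HSC between -0.50 with RLE factors and -0.08 with protein-coding nuclear genes only, beside member medians of 1.29 and 1.10. Transcript usage in HSC gave 1 member, Dnajb1, with a share of at least 10%, with HSC alone and with the replicate block, and 1 to 3 with a library left out. For each of these the cause was not tested.

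Small fold changes that were not called changed sign. Hspd1 in HSC KO was -0.020 with voom and -0.014 with the replicate block, and Hsf1 in preCFU-E KO -0.0030 with length-scaled counts. Xbp1 in WT preCFU-E against preMegE was -0.037 with no filter, -0.00089 with only these populations and -0.12 with protein-coding genes. With a library left out, HSC KO values ran from -0.074 to 0.26 for Hspa8, -0.16 to 0.30 for Hsp90aa1, -0.98 to 1.21 for Hspa1b and -0.22 to 0.16 for Hspd1. In preMegE KO they ran from -0.30 to 0.28 for Hspa5, -0.10 to 0.63 for Hspa8, -0.30 to 0.50 for Hsp90aa1, -0.050 to 0.40 for Hspd1 and -0.20 to 0.075 for Hsf1. In preCFU-E KO they ran from -0.015 to 0.47 for Hspa5, -0.46 to 1.603 for Hspa1a and -0.062 to 0.14 for Hsf1. In WT preCFU-E against preMegE they ran from -0.18 to 0.33 for Xbp1 and -1.005 to 3.04 for Hspa1b. The cause was not tested.

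Replicate numbers were not taken to pair the samples, since not every same-number correlation passed 0.1 in any comparison: deviations of KO and WT libraries with the same number correlated at -0.00439, -0.00146 and 0.00093 in HSC, 0.143, 0.0125 and 0.0857 in preMegE, and 0.00841, -0.0381 and 0.0243 in preCFU-E. They were 0.00544, -0.00679 and -0.0371 between WT preMegE and WT HSC. Between WT preCFU-E and WT preMegE they were 0.242, 0.076 and 0.181, and each library there correlated best with its own number, a hint from the data and not the design. With the replicate block 35 members were called in preMegE against HSC, losing Dnajb1, 30 in preCFU-E against preMegE, gaining Pdia6, Sdf2l1 and Manf, and 0 for the KO. Depth limits Hspa1a and Hspa1b, which had 0 to 34 reads in each HSC library.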
